A study of Drosophila melanogaster with 12 samples.

Results

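The transcripts described are those of 10 enzymes that break down amino acids and purines, namely v, Hn, hgo, Oat, slgA, Gdh, Got1, Got2, Sardh and Uro. They were chosen by name from the deposited table of read counts, in which a transcript carries its gene symbol and a suffix, and 10 of the 15448 transcripts of the table matched, 1 for each gene. The samples were whole adult females that descended from an outbred laboratory population of *Drosophila melanogaster* whose usual food combines corn, sugar and yeast. They came from 4 isocaloric diets that differ in the protein-to-carbohydrate (P:C) ratio, which was set by the amounts of yeast and sugar. The ratio was 0.25 in the most carbohydrate-rich diet, 0.4 in the control diet, which is the usual food of the population, 0.55 in an intermediate diet and 0.7 in the most protein-rich diet. A sample pooled 12 females, frozen 13 days after the eggs had been collected, and each diet had 3 samples. No genotype or agent other than the diet separated the groups. The day was fixed from egg collection, not from eclosion, and a pool of whole females holds RNA of every tissue. The authors reported that development from egg to adult was faster on the diets richer in protein. Females of those diets may therefore have been older as adults when frozen. Adult age was not recorded for the samples, so its part in the differences between diets was not tested.

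Animals that take up more amino acids than they can build into protein remove the amino group and send the carbon skeleton to the citric acid cycle, to glucose or to fat. Aminotransferases and glutamate dehydrogenase gather the nitrogen on glutamate, aromatic amino acids are opened by dedicated oxygenases, and flies dispose of much of the nitrogen as purine end products, uric acid and allantoin. In Drosophila the fat body and the Malpighian tubules, the excretory organ, carry much of this work, and several of the genes were first known from eye colour, behaviour or single-tissue expression.

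All 10 transcripts were tested in every comparison. Along the series of diets, the fitted slope was upward for Got1 and Got2, the cytosolic and the mitochondrial aspartate aminotransferase. It was also upward for Sardh, sarcosine dehydrogenase, and downward for v, tryptophan dioxygenase. Sardh was highest at a P:C ratio of 0.55, and the means of Got1 and Got2 were not higher at 0.7 than at 0.55. Between single diets few members passed. Uro, urate oxidase, was differentially expressed (DE) at a P:C ratio of 0.7, where it was lower than in the control, and v was DE between the ratios of 0.7 and 0.25, also lower at 0.7. In these whole-fly samples, fewer cells of a type and less RNA per cell cannot be told apart. A transcript was DE when its adjusted p was below 0.05 and it changed by over 1.5-fold, which is 0.58 on the log2 scale, with p from edgeR's quasi-likelihood test and Benjamini-Hochberg adjustment over all transcripts tested. The slope along the diets is the change of log2 expression for an increase of the P:C ratio by 1, fitted over all 12 samples. It was called at an adjusted p under 0.05, which held for Got1, Got2, Sardh and v and for 36.7% of all transcripts. Levels are given in CPM, the usual scale on which a sample's counts are divided by its total and its TMM factor.

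Totals lay between 6094226 and 13245114 counts per sample, and 3 counts corresponded to 0.214 to 0.479 CPM. The member counts ranged from 39, for Sardh, to 5508, for Gdh, in a sample. Slopes were called for 36.7% of the 9928 transcripts tested, and the median slope of all of them was 0.05. Scaling by library size alone moved that median to 0.19 and the share of higher among the called slopes from 46.7% to 54.5%. At a P:C ratio of 0.7 against 0.25, the same scaling moved the share of higher among the DE transcripts from 9.31% to 24.6%, and in that of 0.7 with the control from 13.1% to 26.5%. Markers of the tissues of a female fly were counted in every sample, and none was at 0 in any. By the slope, 6 of 11 germline markers rose and none fell, 7 of 9 Malpighian tubule markers fell and none rose, all 8 muscle markers fell, 2 of 7 midgut markers rose and 4 fell, 1 of 8 fat body markers rose and none fell, and none of 11 eggshell markers was called.

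Divided by exon length, so that genes can be compared, the enzymes covered a wide range. Over the 12 samples the mean level was 184 CPM per kilobase for Gdh and 178 for Got2, whose ranges over samples overlapped. Got1 followed at 106 CPM per kilobase, below every sample of Got2 and above every sample of the next genes. Oat, Hn, Uro and slgA formed a middle group at 60.4, 53.4, 47.2 and 45.0 CPM per kilobase, and their ranges overlapped. Below them lay v at 13.8, hgo at 5.99 and Sardh at 2.66 CPM per kilobase, and each of these overlapped the next in the order. The ratio of the highest to the lowest of the 12 samples was smallest for slgA, at 1.17, and largest for Uro, at 3.03.

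**Figure D1:**
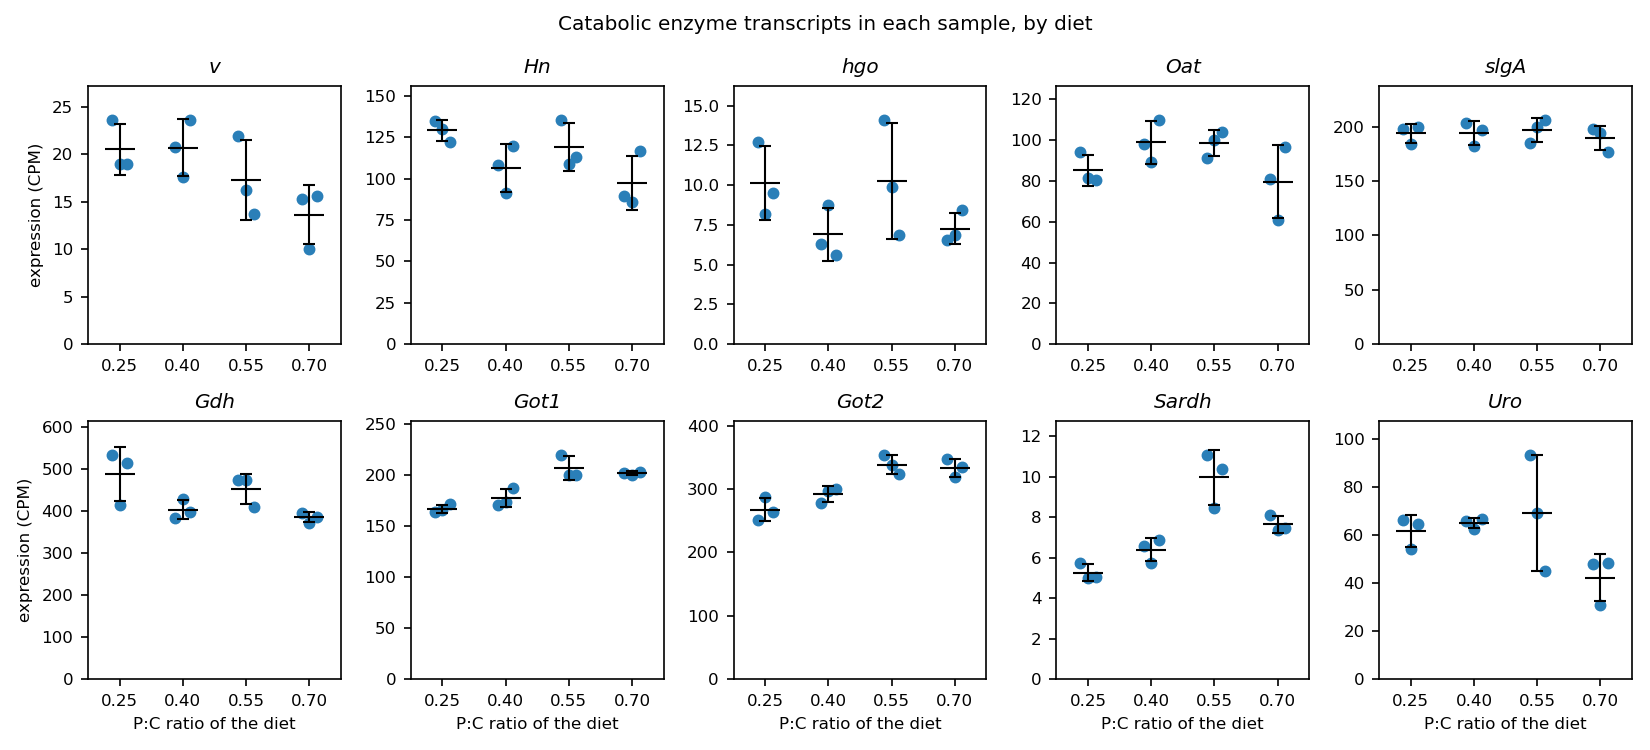
Expression of the 10 enzyme transcripts in CPM (linear vertical axes that start at 0) against the P:C ratio of the diet, with a point for each of the 3 samples per diet, a horizontal line for the mean and a bar for the SD. Got1, Got2 and Sardh are higher at 0.55 and 0.7 than at 0.25 and 0.4 in every sample, the means of v and Uro are lowest at 0.7, and slgA stays between 177 and 206 CPM.

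The aromatic amino acids were represented by 3 enzymes. The gene v (vermilion) encodes the tryptophan dioxygenase that opens the indole ring in the first step to kynurenine and the brown eye pigment. Its transcript lies on chromosome X from 10923972 to 10925631 on the forward strand (dm6) and has 6 exons. Its levels were 23.6, 19.0 and 19.0 CPM at a P:C ratio of 0.25, 20.7, 17.6 and 23.7 CPM at 0.4, 21.9, 16.3 and 13.7 CPM at 0.55, and 15.3, 10.1 and 15.6 CPM at 0.7. Every sample of 0.7 was below every sample of 0.25 and 0.4, while the samples of 0.55 overlapped all other diets. The slope was -1.36 (SE 0.44, adjusted p = 0.0287). Against a P:C ratio of 0.25 the log2 fold change at 0.7 was -0.62 (SE 0.19, adjusted p = 0.0336), a DE call, and against the control it was -0.63 (SE 0.19, adjusted p = 0.0673), which was not. The change against the control was called in 4 of 14 alternatives. The call of the slope was lost without replicate 1 of 0.25 (adjusted p = 0.0785), replicate 1 of 0.7 (adjusted p = 0.0532) or replicate 2 of 0.7 (slope -0.94, adjusted p = 0.107). The DE call against 0.25 was lost without replicates 1 or 3 of 0.25 or replicates 1 or 2 of 0.7, with log2 fold changes of -0.52, -0.67, -0.70 and -0.42 and adjusted p of 0.0975, 0.0709, 0.0594 and 0.0829, and it was lost with scaling by library size alone, where the change was -0.52.

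Hn (Henna) encodes phenylalanine hydroxylase, which turns phenylalanine into tyrosine and also hydroxylates tryptophan. It lies on chromosome arm 3L from 7760453 to 7763166 on the forward strand. Its levels were 135, 130.1 and 122 CPM at a P:C ratio of 0.25, 109, 91.1 and 119.5 CPM at 0.4, 136, 109 and 113 CPM at 0.55, and 89.7, 86.2 and 116 CPM at 0.7. The samples of 0.25 lay above those of 0.4 and of 0.7, and the diets of 0.4, 0.55 and 0.7 overlapped one another. Between 0.7 and 0.25 the log2 fold change was -0.43 (SE 0.12, adjusted p = 0.0233), past the p threshold and short of 1.5-fold. The slope, -0.70 (SE 0.30, adjusted p = 0.0752), was not called, although it was without replicate 2 of 0.4 (adjusted p = 0.0349), replicate 1 of 0.55 (0.0226) or replicate 3 of 0.7 (0.0472).

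The gene hgo encodes homogentisate dioxygenase, which opens the ring of the tyrosine breakdown product homogentisate. It lies on chromosome arm 2L from 11136393 to 11138565 on the forward strand and was weakly counted, with 42 to 112 counts per sample. Its levels were 12.7, 8.20 and 9.54 CPM at a P:C ratio of 0.25, 6.31, 8.76 and 5.63 CPM at 0.4, 14.1, 9.86 and 6.86 CPM at 0.55, and 6.56, 6.85 and 8.42 CPM at 0.7. The diets overlapped in every pair, and the SD at 0.55 was 35.5% of the mean. The mean was 10.1 ± 2.31 CPM (SD, n = 3) at 0.25 and 10.3 ± 3.65 CPM at 0.55, against 6.90 ± 1.64 CPM in the control and 7.28 ± 1.0 CPM at 0.7. No comparison of hgo passed the adjusted threshold, and the 95% interval of its slope ran from -1.96 to 0.82.

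Ornithine and proline both feed into glutamate through the same semialdehyde. Oat encodes ornithine aminotransferase, which makes that semialdehyde from ornithine, and lies on chromosome arm 3L from 19647280 to 19649851 on the reverse strand. Its levels were 94.1, 81.5 and 80.3 CPM at a P:C ratio of 0.25, 97.9, 89.1 and 110.0 CPM at 0.4, 91.3, 100.2 and 104 CPM at 0.55, and 80.9, 61.0 and 96.8 CPM at 0.7. The diets overlapped in every pair, and the lowest sample, replicate 2 of 0.7, was also the lowest for v, Hn, Gdh and Uro. Against the control the log2 fold change at 0.7 was -0.33 (SE 0.15, adjusted p = 0.169), and the slope was -0.21 (SE 0.36, adjusted p = 0.655).

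The gene slgA (sluggish A) encodes proline dehydrogenase, the mitochondrial enzyme that starts the oxidation of proline, a fuel of insect flight muscle. It lies on chromosome X from 21374002 to 21385159 on the forward strand. Its levels were 198, 184 and 199.7 CPM at a P:C ratio of 0.25, 204, 182 and 197 CPM at 0.4, 185, 199 and 206 CPM at 0.55, and 197, 194 and 177 CPM at 0.7. The samples of all 4 diets overlapped, and the diet means lay between 189.5 and 197 CPM. The slope was -0.05 (SE 0.15, adjusted p = 0.782) with a 95% interval from -0.36 to 0.26, and its sign turned with scaling by library size alone (0.10). In the same samples the summed level of the 8 muscle markers went from 5090 to 5977 CPM at 0.25 to 1377 to 1680 CPM at 0.7. The noncoding transcript CR45611 overlaps 416 bases of slgA, of which 229 are exonic.

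Glutamate and aspartate are handled by Gdh and the aminotransferases. Gdh encodes glutamate dehydrogenase, which releases ammonia from glutamate in the mitochondrion, and lies on chromosome arm 3R from 23935958 to 23943101 on the reverse strand. Its levels were 534, 415 and 515 CPM at a P:C ratio of 0.25, 383, 427 and 397 CPM at 0.4, 474, 473 and 409.9 CPM at 0.55, and 396, 372 and 385 CPM at 0.7. The samples of 0.7 were below those of 0.25 and of 0.55, while the control overlapped every diet. Between 0.7 and 0.25 the log2 fold change was -0.37 (SE 0.10, adjusted p = 0.0198), short of 1.5-fold. The slope was -0.58 (SE 0.24, adjusted p = 0.0675), not called in edgeR and called in DESeq2 (adjusted p = 0.0438). It was also called without replicate 2 of 0.25 (0.0360), replicate 1 of 0.4 (0.0442) or replicate 1 of 0.55 (0.0321). The test for any difference among the 4 diets called Gdh (adjusted p = 0.0488).

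Got1 encodes the cytosolic aspartate aminotransferase, which moves the amino group between glutamate and aspartate and serves the malate-aspartate shuttle on the cytosolic side. It lies on chromosome arm 2R from 16138352 to 16141928 on the forward strand. Its levels were 164, 165 and 171 CPM at a P:C ratio of 0.25, 171, 173 and 187 CPM at 0.4, 219.7, 200.2 and 199.6 CPM at 0.55, and 202, 199 and 203 CPM at 0.7. All 6 samples of the 0.55 and 0.7 diets lay above all 6 of the 0.25 and control diets, and the diets within each of these pairs overlapped. The slope was 0.70 (SE 0.15, adjusted p = 0.00488) and the log2 fold change at 0.7 against 0.25 was 0.25 (SE 0.06, adjusted p = 0.0152).

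Got2 encodes the mitochondrial aspartate aminotransferase and lies on chromosome arm 2L from 1984512 to 1987758 on the reverse strand. Its levels were 252, 287 and 264 CPM at a P:C ratio of 0.25, 277, 297 and 301 CPM at 0.4, 355, 338 and 323 CPM at 0.55, and 347, 319 and 335 CPM at 0.7. As with Got1, every sample of 0.55 and 0.7 was above every sample of 0.25 and 0.4. The slope was 0.78 (SE 0.16, adjusted p = 0.00356), and the log2 fold change at 0.7 against 0.25 was 0.30 (SE 0.08, adjusted p = 0.0181). The slopes of Got1 and Got2 were called in each of the 19 alternatives tried, which include leaving out each of the 12 samples, and ranged from 0.63 to 0.75 without a sample for Got1 and from 0.66 to 0.88 for Got2.

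The one-carbon branch was represented by Sardh, sarcosine dehydrogenase, which takes the methyl group off sarcosine and leaves glycine. It lies on chromosome arm 2R from 17753555 to 17756422 on the reverse strand and was the least counted member, with 39 to 103 counts per sample. Its levels were 5.76, 4.97 and 5.05 CPM at a P:C ratio of 0.25, 6.57, 5.75 and 6.87 CPM at 0.4, 11.1, 8.45 and 10.4 CPM at 0.55, and 8.12, 7.34 and 7.47 CPM at 0.7. The highest samples were those of 0.55, all above those of every other diet, and the samples of 0.7 were above those of 0.25 and 0.4. The slope was 1.5 (SE 0.51, adjusted p = 0.0355), and the log2 fold change was 0.52 (SE 0.18, adjusted p = 0.0472) at 0.7 against 0.25. That fold change was called DE in 2 of 14 alternatives, over which it ranged from 0.48 to 0.62. The largest change, at 0.55 against 0.25, was 0.93 (SE 0.19, adjusted p = 0.0687) and did not pass. The slope's call was lost without any one of the 3 samples of 0.25 (adjusted p of 0.0820, 0.0745 and 0.0910 without replicates 1, 2 and 3), without replicate 1 of 0.4 (0.0550) and without replicate 1 of 0.7 (0.0535), with slopes between 1.34 and 1.64. The test for any difference among the diets called Sardh at an adjusted p of 0.00881, beside Got1 at 0.00911, Got2 at 0.00990 and Gdh, 4 of the 10 members against 23.1% of all transcripts.

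Purine breakdown was represented by Uro, urate oxidase, which oxidises uric acid on the way to allantoin and whose adult expression is known from the Malpighian tubules. It lies on chromosome arm 2L from 7780085 to 7781415 on the forward strand and has 2 exons. Its levels were 66.4, 54.1 and 64.6 CPM at a P:C ratio of 0.25, 65.9, 62.5 and 66.6 CPM at 0.4, 93.5, 69.2 and 45.2 CPM at 0.55, and 47.8, 30.9 and 48.2 CPM at 0.7. The 3 samples of 0.7 were below all those of 0.25 and 0.4, and the samples of 0.55 spanned the widest range, from the highest value of the 12 to a value below 2 of the 3 samples of 0.7. The mean was 42.3 ± 9.90 CPM (SD, n = 3) at 0.7 and 65.0 ± 2.16 CPM in the control, a log2 fold change of -0.64 (SE 0.16, adjusted p = 0.0401), called DE. Against 0.25 it was -0.58 (SE 0.17, adjusted p = 0.0311), just short of the 1.5-fold limit. That change was called in 5 of 14 alternatives, which include dropping the fold minimum. The slope, -0.99 (SE 0.59, adjusted p = 0.186), was not called, and without replicate 1 of 0.55 it was (-1.27, adjusted p = 0.0250). The DE call against the control was lost without replicates 1 or 3 of 0.4 (adjusted p of 0.138 and 0.144), without replicate 1 of 0.7 (0.0945), without replicate 2 of 0.7 (log2 fold change -0.44), with all 12 samples in a single fit (0.0886) and with scaling by library size alone (log2 fold change -0.57).

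Against the control, none of the 10 was DE in edgeR at a P:C ratio of 0.25, where 0.636% of all transcripts were, and none was in DESeq2. At an unadjusted p under 0.05 there were 3, Hn, hgo and Gdh, all higher at 0.25, beside 17% of all transcripts. Only Hn had samples that did not overlap, with 22.8% of all transcripts. At 0.55 none was DE in either tool, with 0.0415% of all transcripts DE in edgeR, and Got1, Got2 and Sardh had an unadjusted p under 0.05, beside 3.6% of all, and samples wholly above the control, beside 7.19%. Their log2 fold changes there were 0.22, 0.22 and 0.64 with adjusted p of 1, 1 and 0.881.

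At a P:C ratio of 0.7 against the control, Uro alone was DE, 1 of 10, beside 3.82% of all transcripts DE in the lower direction and 4.4% in both. In edgeR 4 members had an unadjusted p under 0.05, beside 32.8% of all transcripts. DESeq2 called 2 members there, and its share of all transcripts is not given here. Samples did not overlap for 5 members, v and Uro lower and Got1, Got2 and Sardh higher, beside 36.2% of all transcripts. The median log2 fold change of the members was -0.06 and that of all transcripts 0.00.

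The extremes, 0.7 against 0.25, gave the most. The DE call of v was 1 of 10, where 17.5% of all transcripts were DE and lower and 19.3% in both directions. By adjusted p alone 7 members passed, with v, Hn, Gdh and Uro lower and Got1, Got2 and Sardh higher, beside 38.6% of all transcripts. The same 7 had samples that did not overlap, beside 56.3% of all. The remaining members were hgo at -0.48 (SE 0.21, adjusted p = 0.0900), Oat at -0.12 (SE 0.16, adjusted p = 0.544) and slgA at -0.05 (SE 0.07, adjusted p = 0.556) on the log2 scale. The median over the members was -0.24, and over all transcripts -0.00.

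The comparisons that involve the 0.55 diet without the control gave no DE member in edgeR. Against 0.25, with 1.13% of all transcripts DE, 4 members had an unadjusted p under 0.05, beside 15% of all, and Got1, Got2 and Sardh did not overlap, beside 21.6%. Between 0.7 and 0.55, with 1.69% of all transcripts DE, Gdh, Sardh and Uro had an unadjusted p under 0.05, all lower at 0.7, beside 30.8% of all, and the samples of Gdh and Sardh did not overlap, beside 34.1%. DESeq2 called 1 member in each of these comparisons, and its share of all transcripts is not given here. The 6 comparisons share samples, so their values are not independent of one another.

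**Figure D2:**
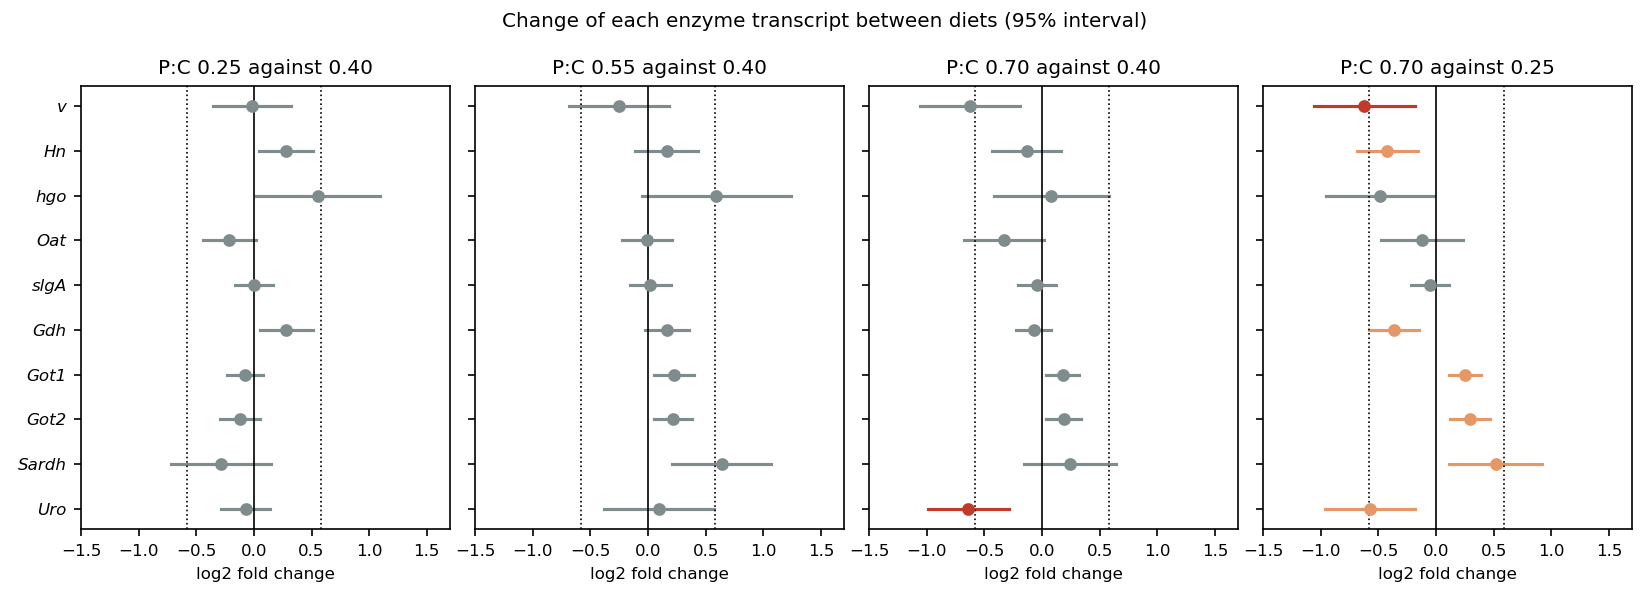
Log2 fold change of the 10 enzyme transcripts (points) with its 95% interval (bars) in 4 comparisons of diets, the P:C ratio named first against the second, with dotted lines at 1.5-fold. Red marks DE transcripts, orange those with an adjusted p under 0.05 short of 1.5-fold and grey the rest, and red appears only for Uro at 0.7 against 0.4 and for v at 0.7 against 0.25.

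Over the series of diets, slopes were called for 4 of the 10 members, near the 36.7% called of all transcripts. Of the 4, 3 were upward, where 17.1% of all transcripts rose, and 1 was downward, where 19.6% fell. The median slope of the members was -0.39. The number called ranged from 2 to 7 when a sample was left out. It was 2 without replicate 1 of 0.25 or replicate 1 of 0.7, and 7 without replicate 1 of 0.55. The share of all transcripts called in those fits is not given here.

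The patterns of the members over the 12 samples were compared by the root mean square difference of their standardised log2 CPM, where 0 is an identical pattern. Got1 and Got2 were close to each other at 0.356, Got1 and Sardh at 0.437, Got2 and Sardh at 0.592, and v and Uro at 0.503. The transcripts of the table closest to Got2 were CG3679-RB at 0.298, Sodh-1-RA at 0.372 and Mal-A7-RB at 0.391, where the median over 7912 transcripts was 1.24. Those closest to v were Phm-RA at 0.253, Nha1-RB at 0.256 and RpL35-RC at 0.294, with a median of 1.49. These differences are descriptions over samples that share diets, and carry no test.

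Malpighian tubule markers moved in the direction of v and Uro. The 9 markers, all detected in every sample with at least 8 counts, summed to 314 to 375 CPM at a P:C ratio of 0.25, 259 to 305 CPM at 0.4, 253 to 313 CPM at 0.55 and 179 to 231 CPM at 0.7. At 0.7 against the control 3 of the 9 were DE, all lower, beside 3.82% of all transcripts, and at 0.7 against 0.25 there were 7, beside 17.5%. The marker sum was lowest in replicate 2 of 0.7, the sample in which v, Hn, Gdh, Uro and Oat were lowest. Without that sample 4 of the 9 slopes were called in place of 7. At 0.7, relative to the control mean, Uro stood at 65.1% ± 15.2 (SD, n = 3), v at 66.0% ± 15.1 and the tubule marker sum at 72.8% ± 9.28. A mean below the control at 0.7 was not particular to the tubule markers. The muscle, eggshell, midgut and fat body sums stood there at 58.8% ± 6.51, 75.5% ± 14.4, 83.5% ± 6.95 and 85.6% ± 10.7, and the germline sum at 107% ± 3.66. At 0.25 the tubule marker sum stood at 119% ± 11.9, Uro at 94.95% ± 10.3 and v at 99.3% ± 12.9.

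As a percentage of the summed tubule marker CPM, Uro stood at 18.4% ± 1.60 (SD, n = 3) at 0.25, 23.0% ± 1.13 at 0.4, 24.9% ± 6.28 at 0.55 and 20.4% ± 2.90 at 0.7. In the same measure v stood at 6.09% ± 0.186, 7.28% ± 0.479, 6.27% ± 0.791 and 6.58% ± 0.885. In this measure the intervals of 1 SD around the means of 0.7 and of the control overlapped for both genes, while those of 0.25 and of the control did not, 0.25 being lower. With 3 samples per diet these overlaps are a description and carry no test. The marker ZnT35C, a large part of the sum, hardly moved, with means of 64.7 CPM at 0.7 and 64.8 CPM in the control. The part of the tubules in the lower levels of v and Uro was not tested.

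Germline markers moved in the direction of Got1 and Got2. The 11 markers, detected in every sample, summed to 3285 to 3816 CPM at a P:C ratio of 0.25, 4093 to 4392 CPM at 0.4, 3996 to 4774 CPM at 0.55 and 4481 to 4772 CPM at 0.7. The sum leans on yl and osk, which had means of 1892 and 954 CPM at 0.7. Of the 11 markers 6 rose by the slope, beside 17.1% of all transcripts, and the other 5 were not called. Without replicate 1 of 0.25 only 2 rose, and none was DE between any pair of diets. Relative to the control mean, the germline sum stood at 83.2% ± 6.22, 103% ± 9.18 and 107% ± 3.66 at 0.25, 0.55 and 0.7. Got1 stood at 94.2% ± 2.29, 117% ± 6.47 and 114% ± 0.993 in the same order, and Got2 at 91.7% ± 6.16, 116% ± 5.37 and 114% ± 4.81. At 0.55 the fat body and midgut sums also had means above the control, at 112% ± 9.85 and 106% ± 8.41. At 0.7 they stood below it, at 85.6% ± 10.7 and 83.5% ± 6.95.

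As a percentage of the summed germline marker CPM, Got1 stood at 4.69% ± 0.337, 4.14% ± 0.370, 4.71% ± 0.693 and 4.39% ± 0.185 from the lowest to the highest P:C ratio, and Got2 at 7.52% ± 0.149, 6.82% ± 0.497, 7.73% ± 1.06 and 7.28% ± 0.519. Sardh stood at 0.149% ± 0.0236, 0.1498% ± 0.0186, 0.228% ± 0.0455 and 0.167% ± 0.0128. The part of the germline in the levels of these genes was not tested.

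**Figure D3:**
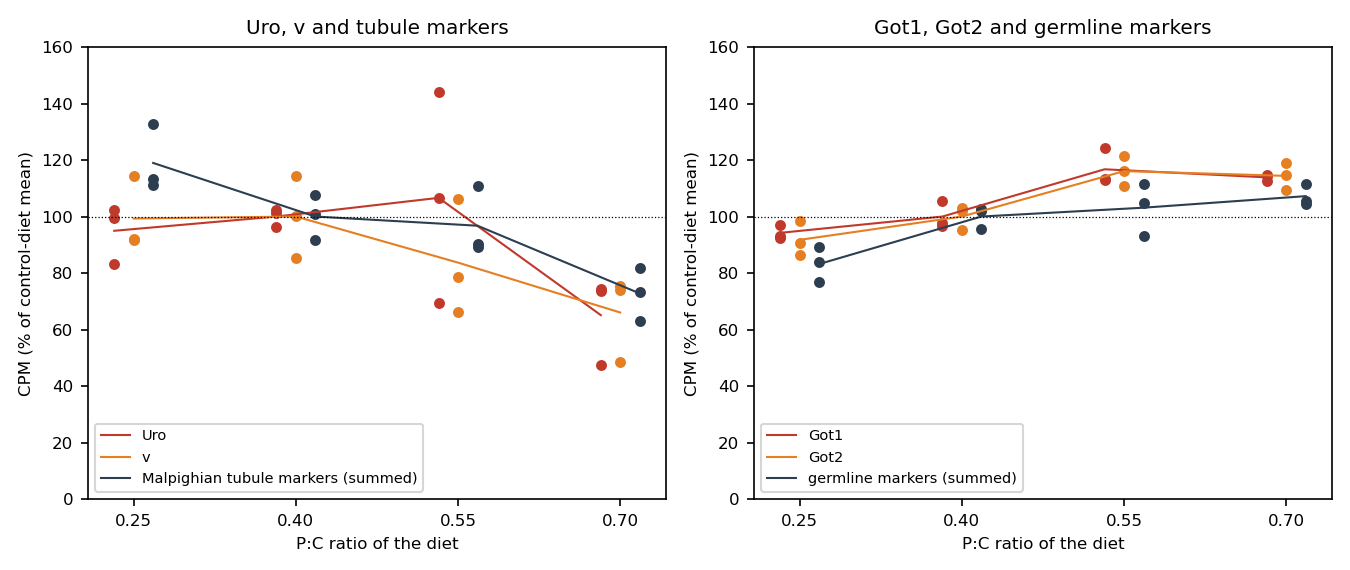
Left, Uro, v and the summed Malpighian tubule markers, and right, Got1, Got2 and the summed germline markers, as a percentage of their mean on the control diet (linear axis), against the P:C ratio, with a point for each sample and lines through the diet means. At 0.7 Uro, v and the tubule markers all lie below 100%, at means of 65.1%, 66.0% and 72.8%, and Got1, Got2 and the germline markers all lie above it, at 114%, 114% and 107%.

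A further 48 genes of amino acid and purine pathways were listed from general knowledge of the enzymes, of which 47 were in the table and 45 were tested. The lists for branched-chain amino acids, lysine, and methionine and cysteine, with 11, 2 and 5 of these genes, hold none of the members. Along the P:C ratio 2 of the 45 rose, 7 fell and 36 were not called, beside 17.1% and 19.6% of all transcripts. Their median slope was -0.29. Leaving out a sample gave from 4 to 10 that fell, being 4 without replicate 1 of 0.25 or any one of the 3 samples of 0.7. The number that rose ranged from 0 to 3, and it was 0 without any one of 7 of the 12 samples. Scaling by library size alone gave 6 that rose and 5 that fell.

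Among the listed genes of tryptophan and kynurenine breakdown both tested genes fell with v. KFase, kynurenine formamidase, had a slope of -1.18 (SE 0.35, adjusted p = 0.0200), with 6.71 to 7.68 CPM at 0.25 and 4.35 to 5.70 CPM at 0.7. Kyat, kynurenine aminotransferase, had a slope of -0.48 (SE 0.15, adjusted p = 0.0223), with 81.3 to 85.9 CPM at 0.25 and 68.0 to 74.3 CPM at 0.7. In the pigment branch, cn, kynurenine monooxygenase, had 0 to 14 counts per sample and did not pass the filter on low counts.

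Of 5 tested genes of phenylalanine and tyrosine breakdown, Tat fell and the others were not called. Tat, tyrosine aminotransferase, follows Hn in the pathway and had the smallest slope p of the 45 genes. Its levels were 72.4, 46.6 and 63.1 CPM at a P:C ratio of 0.25, 43.7, 35.2 and 46.1 CPM at 0.4, 30.8, 31.9 and 37.3 CPM at 0.55, and 23.6, 29.0 and 34.5 CPM at 0.7. Every sample of 0.25 was above every sample of the other diets, and the slope was -2.33 (SE 0.36, adjusted p = 0.000654). At 0.7 against 0.25 its log2 fold change was -1.07 (SE 0.18, adjusted p = 0.00367).

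Of 7 tested genes around proline, ornithine, glutamate and alanine, Gs2 fell, and none rose. Gs2, a glutamine synthetase, had 323 to 454 CPM at 0.25 and 201 to 243 CPM at 0.7 (slope -1.60, SE 0.38, adjusted p = 0.00802), and the samples of these diets did not overlap.

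Of 7 tested genes of glycine, serine and one-carbon metabolism, Gnmt and Dld fell by the slope, in a branch where the slope of Sardh was upward. Gnmt, glycine N-methyltransferase, makes the sarcosine that Sardh consumes, and was weakly counted, with 13 to 107 counts per sample. Its levels were 14.2, 6.09 and 10.01 CPM at a P:C ratio of 0.25, 2.19, 2.19 and 1.80 CPM at 0.4, 3.40, 5.16 and 9.57 CPM at 0.55, and 2.34, 0.927 and 1.61 CPM at 0.7. The samples of 0.25 were above those of 0.4 and 0.7 and overlapped those of 0.55, so the levels did not move one way along the ratio. The slope was -4.45 (SE 1.45, adjusted p = 0.0299), and the log2 fold change was 2.28 (SE 0.34, adjusted p = 0.0312) at 0.25 against the control and -2.74 (SE 0.41, adjusted p = 0.00203) at 0.7 against 0.25. Dld, the dihydrolipoamide dehydrogenase shared by the glycine cleavage system and the ketoacid dehydrogenases, had 382 to 426 CPM at 0.25 and 251 to 286 CPM at 0.7 (slope -1.21, SE 0.21, adjusted p = 0.00121).

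Of 6 tested purine genes, Ada rose and AMPdeam fell. Ada, adenosine deaminase, had 1.99 to 4.11 CPM at 0.25 and 4.71 to 5.58 CPM at 0.7 (slope 1.63, SE 0.58, adjusted p = 0.0420), and AMPdeam, AMP deaminase, had 173 to 202 CPM at 0.25 and 139 to 140.3 CPM at 0.7 (slope -0.68, SE 0.24, adjusted p = 0.0416). The gene ry, xanthine dehydrogenase, which makes the uric acid that Uro oxidises, had a slope of -0.18 (SE 0.38, adjusted p = 0.722) and was not called.

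Of 11 tested genes of branched-chain amino acid breakdown only Dbct, the transacylase of the branched-chain ketoacid dehydrogenase, was called, and it rose from 40.3 to 45.5 CPM at 0.25 to 46.4 to 54.1 CPM at 0.7 (slope 0.46, SE 0.17, adjusted p = 0.0477). The 2 lysine genes and the 5 methionine and cysteine genes were not called along the ratio. Between pairs of diets, 4 of the 45 were DE at 0.7 against 0.25, all lower, namely Tat, Gs2, Gnmt and Dld, where 17.5% of all transcripts were DE and lower. In the other pairs there were Gnmt at 0.25 against the control, P5cr-2, a pyrroline carboxylate reductase, lower at 0.7 against the control (log2 fold change -0.69, SE 0.17, adjusted p = 0.0401) and PNP, purine nucleoside phosphorylase, lower at 0.7 against 0.55 (log2 fold change -0.76, SE 0.12, adjusted p = 0.0327), and none of the 45 at 0.55 against the control or against 0.25.

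**Figure D4:**
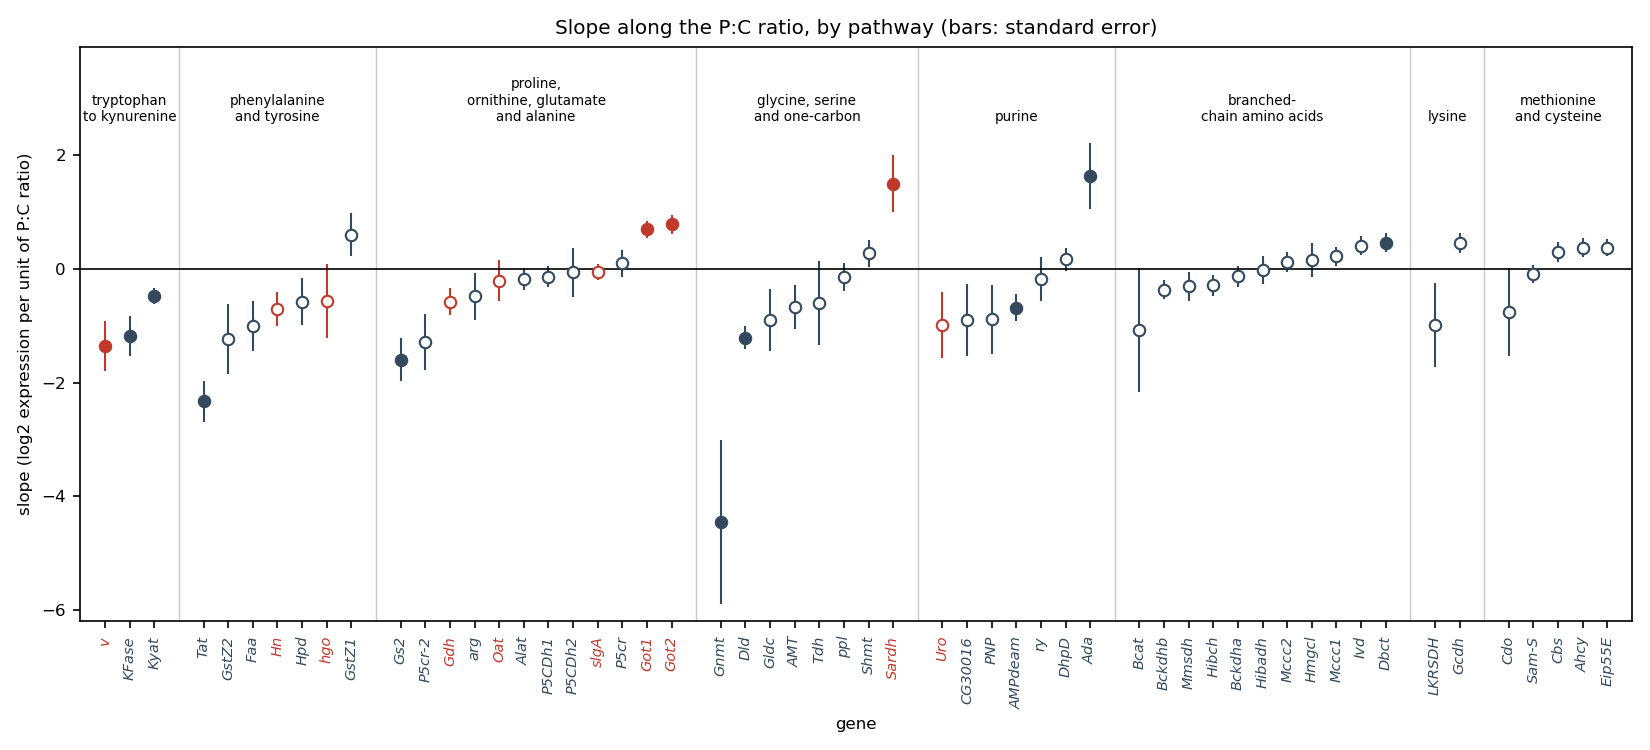
Slope of log2 expression along the P:C ratio (linear axis, with a bar for the standard error) of the 10 enzymes, in red, and of the 45 other tested genes, in dark blue, sorted within each pathway, with filled points for slopes called at an adjusted p under 0.05. The 3 filled red points above 0 are Got1, Got2 and Sardh and the filled red point below 0 is v, while 7 of the 9 filled blue points lie below 0.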

How the data were processed

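RNA was measured in 12 samples, and their diets and replicate numbers were taken from the labels. After trimming, the authors mapped the reads to dm6 (BDGP6) using HISAT2 and used Seqmonk to obtain counts for each transcript, and deposited these raw counts with no normalization. Whether counting used strand is not given in the sources used here, and Gdh, Got2 and slgA overlap a neighbouring transcript. The labels name no batch. The replicates are separate pools of flies.

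Tests used edgeR 4.0.16 in R 4.3.3 (TMM, filterByExpr, quasi-likelihood test, Benjamini-Hochberg over all transcripts), on the 6 samples of each pair of diets and on all 12 for the slope and for any difference among diets. A standard error is the size of the estimate over the square root of F. CPM used TMM-scaled totals, and log2 CPM a prior count of 2. Exon lengths and the genes' spans came from the Ensembl annotation of the same assembly.

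The members, gene lists and markers were chosen with earlier results of these data known. 1 listed pathway gene is not reported here and was left out of the counts. All 10 members are named. Of other lists, at most 3 called genes by smallest slope p are named. P5cr-2, PNP, cn, ry and the markers yl, osk and ZnT35C were named after their values were seen. The ratios to marker sums were also chosen after the values were seen. For the member that rose and the one that fell with the smallest slope p, the 3 closest transcripts with a mean log2 CPM over 3 are named. The floor of 3 counts covers counting error only. Any 2 samples of a diet differed by more than counting noise. Alternatives were DESeq2 1.42.0, its size factors, library size alone, no filter, at least 10 counts in every sample, the replicate number as a block, all 12 samples in a fit, no fold minimum, the rank of the diet and each sample left out in turn. The fits were tested on simulated data.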

Additional observations from a re-analysis of the deposited data

How the results depend on the processing

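The number of members called changed with the processing in 6 of the 8 tests. At 0.7 against 0.4, where 1 was DE, DESeq2 and the replicate block gave 2, library size alone and all 12 samples in a fit gave 0, and leaving out a sample gave 0 to 2. At 0.55 against 0.25, in place of 0, DESeq2, library size alone and all 12 samples gave 1. At 0.7 against 0.55, in place of 0, DESeq2 gave 1 and leaving out a sample 0 to 1. At 0.7 against 0.25, in place of 1, at least 10 counts in every sample and the replicate block gave 2, no fold minimum gave 7, and leaving out a sample gave 0 to 2. For the slope, in place of 4, DESeq2 gave 5 and leaving out a sample 2 to 7. For any difference among the diets, in place of 4, DESeq2 gave 5, library size alone, no filter and the replicate block gave 3, and leaving out a sample gave 3 to 5. At 0.25 and at 0.55 against 0.4 the count was 0 in all 14 alternatives. The 7 without a fold minimum at 0.7 against 0.25 stand beside 38.6% of all transcripts. The other counts of this paragraph are given without such a share. A move among the members can therefore not be told from a move of all transcripts. The cause of the changes was not tested.

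Single members were followed under the alternatives at 0.7 against 0.4, at 0.7 against 0.25 and for the slope, and there directions turned for hgo, Oat and slgA, none of them called. With library size alone slgA was at 0.028 (0.7 against 0.4), 0.051 (0.7 against 0.25) and 0.10 (slope). Leaving out a sample gave from -0.047 to 0.28 for hgo and from -0.090 to 0.0019 for slgA at 0.7 against 0.4, from -0.29 to 0.047 for Oat at 0.7 against 0.25, and slopes from -0.40 to 0.20 for Oat and from -0.13 to 0.049 for slgA. The sign of Oat turned without replicate 2 of 0.7, that of slgA without replicate 3 of 0.7, and that of hgo without replicate 3 of 0.4 or of 0.7.

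Shared replicate numbers did not pair the samples. Of 18 same-numbered pairs 4 had a correlation of deviations over 0.1, and all 18 ran from -0.34 to 0.34. Only 3 of 12 samples correlated best with their own number. Differently numbered samples of different diets ran more widely, from -0.40 (replicate 1 of 0.25 with replicate 3 of 0.55) to 0.44 (replicate 2 of 0.25 with replicate 3 of 0.55). What such samples share was not tested. The block changed the count of members called in the comparisons of 0.7 with 0.4 and with 0.25 and in the test for any difference. Counts of 39 to 112 limit Sardh and hgo. Among the called pathway genes, counts of 13 to 107 limit Gnmt, 16 to 66 Ada and 31 to 80 KFase.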
